A study of Mus musculus with 18 samples.

Results

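Collagen genes were taken as all genes whose symbol is Col, a number, a and a number. The rule found 39 of the 29538 genes listed in any of the 4 deposited tables, with 28 of 17379 in the mRNA table of the sgNAT10 set, 21 of 10974 in its Ribo-seq table, 39 of 28738 in the mRNA table of the sgMyc set, and 5 of the 1066 genes with a peak of acetylated RNA. They were kept apart as 11 fibrillar collagens, 6 basement membrane collagens (the chains of type IV) and 22 others.

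The cell line was TC1 throughout, labelled as a fibrosarcoma of the mouse, and no drug or other agent is stated. Messenger RNA was sequenced from 2 unedited (WT) and 2 sgNAT10 libraries, which carry a guide RNA against Nat10, and in a separate set from 3 WT and 3 sgMyc libraries, which carry a guide against Myc. Ribosome footprints (Ribo-seq, the RNA fragments that translating ribosomes cover) were sequenced from 2 WT and 2 sgNAT10 libraries, and acetylated RNA (acRIP-seq, precipitation of acetylated RNA) from 1 precipitate and 1 input per genotype. The controls are labelled wild type and no control guide is named. The guide sequences, and whether edited cells were a pool or a clone, are not given in the sources used here. Nothing in the labels says that libraries came from separate cultures, so p-values measure only the spread between these libraries, which may be technical. Levels are in FPKM, fragments per gene length and library size. The 3 expression tables were normalized separately, so each edited group was compared with its own WT.

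Collagens are the main structural proteins of the extracellular matrix, built of 3 chains wound into a triple helix that needs glycine at regular steps along each chain. Fibrillar collagens are trimmed by propeptidases and cross-linked by lysyl oxidases into the fibres of connective tissue, while type IV chains form the open network of basement membranes together with laminins, nidogens and perlecan. Nat10 is the enzyme that acetylates cytidines in RNA, and Myc is a transcription factor that drives cell growth.

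The edited genes were lower in their own sets. Nat10 mRNA was at 5.36 and 5.30 FPKM in WT and 3.59 and 3.95 in sgNAT10 (log2 fold change -0.41, limma adjusted p = 0.00266), and Myc mRNA in the same libraries at 115 and 117 against 40.0 and 40.9. In the sgMyc set Myc was at 64.8, 61.6 and 70.8 in WT and 21.1, 20.9 and 34.1 in sgMyc (log2 fold change -1.37, edgeR quasi-likelihood adjusted p = 0.011). The third sgMyc library stood apart: over 11907 genes its median absolute log2 difference from the first and second sgMyc libraries was 0.29 and 0.29, against 0.05 between those, and 0.20 to 0.22 from the WT libraries. The sgMyc collagen values below are therefore given library by library, with the fit without that library beside those named. Of 10 fibroblast or mesenchymal markers 6 had a mean of at least 1 FPKM in the sgNAT10 mRNA set, and epithelial, endothelial and T cell markers each summed to under 1 FPKM in all libraries of both mRNA sets. These sums cover listed genes only. In the sgNAT10 mRNA set 2 of 8 epithelial, 2 of 5 endothelial and 0 of 4 T cell markers were listed, and in the sgMyc set 6, 4 and 2. In footprints the 2 listed epithelial markers summed to 2.51 to 2.61 FPKM in WT and 1.35 to 5.70 in sgNAT10.

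In sgNAT10 cells the collagen classes had other shares of collagen mRNA, at nearly the same sum. The summed collagen level was 170.1 and 171.6 FPKM in the WT libraries and 171.6 and 174.3 in the sgNAT10 libraries. Type IV chains made up 45.3% and 44.6% of it in WT and 15.7% and 15.4% in sgNAT10. Fibrillar chains made up 24.6% and 25.2% in WT and 49.95% and 51.2% in sgNAT10, so the leading class changed from the basement membrane to the fibrillar one. The other collagens were at 30.1% and 30.2% in WT and 34.4% and 33.4% in sgNAT10. Ribosome footprints showed the same order of classes, with type IV at 44.4% and 40.9% in WT and 14.9% and 14.5% in sgNAT10, and fibrillar chains at 22.0% and 21.6% in WT and 46.5% and 48.2% in sgNAT10. No library of 1 genotype overlapped the other in the shares of these 2 classes. With 2 libraries per genotype an exact two-sided permutation test cannot give a p below 0.333, so the shares are a description.

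**Figure D1:**
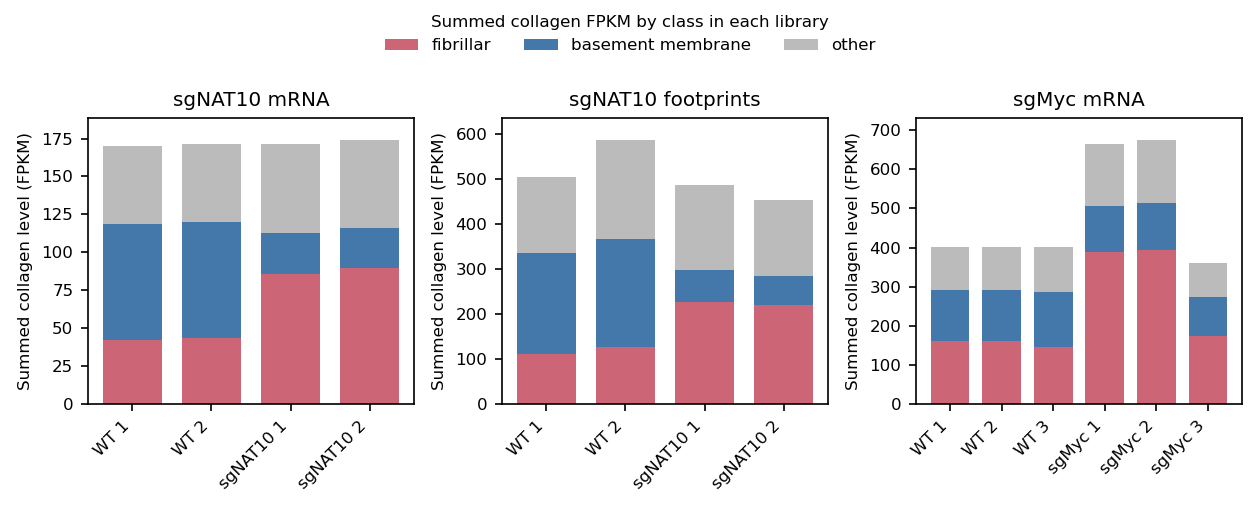
Summed collagen level (FPKM, y axis from 0) in each library, stacked by class: fibrillar, basement membrane (type IV) and other. In the sgNAT10 mRNA panel the 4 columns have nearly the same height (170.1 to 174.3 FPKM), while the type IV part is 45.3% and 44.6% in WT and 15.7% and 15.4% in sgNAT10. In the sgMyc panel the first and second sgMyc libraries stand above the others.

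Gene by gene, 14 collagens had a mean of at least 1 FPKM in the sgNAT10 mRNA set and were tested with limma on log2(FPKM + 1). All 14 passed at an adjusted p under 0.05, 6 higher and 8 lower in sgNAT10. Of all 11735 genes tested 63.3% passed, 33.7% higher and 29.6% lower, so passing is common in this comparison. The median log2 fold change of the 14 was -0.25, against 0.01 over all genes tested. By class, 4 of 5 fibrillar collagens rose (median 0.68), 3 of 3 type IV chains fell (median -1.43), and of 6 others 2 rose and 4 fell (median -0.26). In all 14 the WT and sgNAT10 libraries did not overlap, which was so for 82.3% of all genes tested.

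Among the tested collagens, the type IV pair Col4a1 and Col4a2 fell most. These genes, whose chains form the common heterotrimer of basement membranes, are neighbours on chromosome 8 in opposite directions (RefSeq, GRCm38.p6: Col4a1 at chr8:11198423-11312889, minus strand; Col4a2 at chr8:11312805-11449287, plus strand). Their promoter windows, 250 bases before to 50 after the start in RefSeq, share 78 bases (chr8:11312777-11312854), and the starts on which these windows are set lie 21 bases apart. Both windows are printed because the pair shares its promoter and moved together. Capitals mark the GC box GGGCGG and the CCAAT box on either strand. Col4a1 (chr8:11312777-11313076, minus strand) and Col4a2 (chr8:11312555-11312854, plus strand), each 5′ to 3′:
Col4a1: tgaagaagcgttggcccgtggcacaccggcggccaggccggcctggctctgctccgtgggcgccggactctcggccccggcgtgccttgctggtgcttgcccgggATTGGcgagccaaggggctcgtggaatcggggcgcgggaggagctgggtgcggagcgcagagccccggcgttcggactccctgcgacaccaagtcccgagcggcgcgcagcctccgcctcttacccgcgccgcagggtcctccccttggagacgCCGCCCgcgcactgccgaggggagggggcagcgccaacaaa
Col4a2: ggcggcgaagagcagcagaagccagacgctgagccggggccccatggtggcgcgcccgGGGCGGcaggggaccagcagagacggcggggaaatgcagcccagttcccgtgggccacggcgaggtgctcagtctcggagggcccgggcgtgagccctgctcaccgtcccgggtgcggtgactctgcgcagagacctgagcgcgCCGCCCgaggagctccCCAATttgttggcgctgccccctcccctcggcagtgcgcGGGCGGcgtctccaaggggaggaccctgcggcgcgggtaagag
Col4a1 holds 1 GC box and 1 CCAAT box in its window, and Col4a2 3 GC boxes and 1 CCAAT box. A GC box is in 35.6% and a CCAAT box in 37.4% of all 32817 promoter windows of this length.

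Col4a1 mRNA was at 43.6 and 43.4 FPKM in WT and 14.03 and 14.2 in sgNAT10 (log2 fold change -1.56, SE 0.0316, adjusted p = 9.41e-06). Col4a2 was at 24.6 and 24.7 in WT and 8.43 and 8.63 in sgNAT10 (-1.43, SE 0.0359, adjusted p = 1.5e-05). Both chains were lower in each edited library than in each WT library, and their ratio moved little: 1.77 and 1.76 units of Col4a1 per Col4a2 in WT against 1.66 and 1.65. Col4a5, an X-linked chain of the basement membranes of kidney and smooth muscle, was at 8.72 and 8.37 in WT and 4.37 and 3.98 in sgNAT10 (-0.88, adjusted p = 0.000177). It fell less than its relative, so that Col4a5 per Col4a1 went from 0.20 and 0.193 to 0.312 and 0.279. Col4a3 and Col4a4 stayed under 0.04 FPKM in every library of this set, and Col4a6 is not in its table.

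Type IV chains were also lower in ribosome footprints. Col4a1 footprints were at 111.8 and 134.2 FPKM in WT and 34.8 and 30.1 in sgNAT10 (log2 fold change -1.89, SE 0.182, limma adjusted p = 0.00914), and Col4a2 at 81.5 and 77.5 against 22.4 and 23.3 (-1.75, SE 0.172, adjusted p = 0.00914). The groups were far apart for both. Col4a5 footprints were at 30.7 and 29.1 in WT and 15.1 and 12.5 in sgNAT10, without overlap, and did not pass (-1.07, adjusted p = 0.0713).

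Among fibrillar collagens, Col1a2 rose most in level. It encodes the second chain of type I collagen, which in connective tissue pairs with 2 copies of the chain of Col1a1. Col1a2 mRNA was at 12.7 and 13.5 FPKM in WT and 41.7 and 42.1 in sgNAT10 (log2 fold change 1.61, SE 0.0404, adjusted p = 1.5e-05), and its footprints at 30.6 and 39.9 against 112.4 and 105.0 (1.61, SE 0.191, adjusted p = 0.0166). The fitted log2 change was thus 1.61 in each assay. Its partner was nearly absent: Col1a1 was at 0.264 and 0.216 FPKM in WT and 0.142 and 0.161 in sgNAT10, under the level tested. Col1a2 per Col1a1 was 48.1 and 62.6 in WT and 295 and 262 in sgNAT10, so in all of these libraries the mRNA of the second chain far exceeded that of the first. Its ratio to the leading type IV chain turned over, from 0.292 and 0.311 units of Col1a2 per Col4a1 to 2.98 and 2.96.

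The promoter windows of Col1a2 and of Col5a1, another fibrillar collagen that rose, are shown beside those of the type IV pair, with the same boxes in capitals. Col1a2 (chr6:4505368-4505667, plus strand) and Col5a1 (chr2:27886175-27886474, plus strand):
Col1a2: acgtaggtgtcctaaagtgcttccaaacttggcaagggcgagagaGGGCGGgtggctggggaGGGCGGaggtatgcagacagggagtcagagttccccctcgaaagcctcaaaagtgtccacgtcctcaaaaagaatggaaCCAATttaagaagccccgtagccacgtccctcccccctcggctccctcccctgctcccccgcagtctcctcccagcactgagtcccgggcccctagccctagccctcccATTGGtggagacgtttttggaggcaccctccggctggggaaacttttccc
Col5a1: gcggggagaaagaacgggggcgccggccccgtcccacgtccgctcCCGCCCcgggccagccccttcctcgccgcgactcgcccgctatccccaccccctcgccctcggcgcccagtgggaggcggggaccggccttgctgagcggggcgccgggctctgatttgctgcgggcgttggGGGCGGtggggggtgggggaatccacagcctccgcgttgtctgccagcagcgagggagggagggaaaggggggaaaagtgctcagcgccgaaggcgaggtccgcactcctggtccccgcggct
The Col1a2 window holds 2 GC boxes and 2 CCAAT boxes, and that of Col5a1 2 GC boxes and no CCAAT box. RefSeq gave a promoter window for 31 of the 39 collagens; 20 of these hold a GC box and 12 a CCAAT box. The E-box CACGTG, the letters that Myc and its partner Max bind, is in none of the 31 and in 7.15% of all windows. The AP-1 letters TGANTCA are in 1 of the 31, the window of Col6a1, and in 7.81% of all windows. Letters were searched on both strands, and these matches describe the windows only.

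Col5a1 and Col5a2, the chains of type V collagen that nucleates type I fibrils, rose together. Col5a1 mRNA was at 8.53 and 8.61 FPKM in WT and 13.6 and 15.2 in sgNAT10 (0.68, adjusted p = 0.000403), and Col5a2 at 14.8 and 14.95 against 23.9 and 24.99 (0.68, adjusted p = 0.000107). Their ratio, 1.74 and 1.74 units of Col5a2 per Col5a1 in WT, was 1.75 and 1.65 in sgNAT10. In footprints the same ratio was higher in every library, 5.17 and 4.98 in WT and 5.19 and 4.38 in sgNAT10. Footprints of neither chain passed the test (0.62, adjusted p = 0.263 for Col5a1; 0.57, adjusted p = 0.142 for Col5a2), although the groups did not overlap. Col5a3, the third type V chain, went the other way: it was at 0.898 and 1.14 FPKM in WT and at 0.0171 and 0 in sgNAT10, and its footprints at 2.42 and 1.24 against 0 and 0. Its mean was under the level tested; edgeR on reads recovered from the FPKM called it lower in mRNA (adjusted p = 6.3e-13) and in footprints (adjusted p = 0.0362), where 75 reads in WT against 0 put it at least 24.9-fold lower over a limit of 3 reads per group.

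Col27a1, a fibrillar collagen best known from cartilage, went from a trace to a low level. It was at 0.0105 and 0.0251 FPKM in WT and at 2.96 and 3.03 in sgNAT10 (1.97 on the log2(FPKM + 1) scale, adjusted p = 4.67e-05; that scale understates a change from near 0, and with a pseudocount of 0.1 the value was 4.72). Its footprints were listed at 0 in both WT libraries and at 1.33 and 0.490 in sgNAT10, at least 18.4-fold higher with 73 reads against a limit of 3 per group. Col3a1, which joins type I collagen in the fibrils of skin and vessels, was the tested fibrillar gene that fell, from 4.29 and 4.34 to 3.18 and 3.66 (-0.27, adjusted p = 0.0227). Col11a1, a minor chain of cartilage fibrils, was at 0.322 and 0.338 FPKM in WT and 0.137 and 0.195 in sgNAT10, under the level tested, and edgeR on recovered reads called it lower (-1.01, adjusted p = 0.000166). Col2a1 and Col11a2 were under 0.05 FPKM in every mRNA library of this set.

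**Figure D2:**
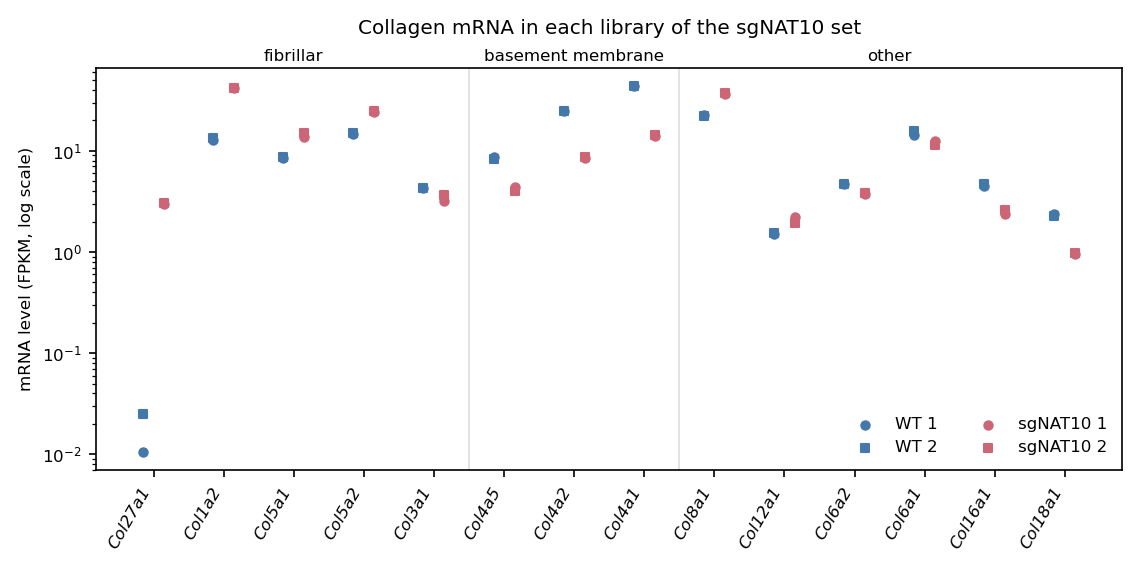
mRNA level (FPKM, log axis) of the 14 tested collagens in each library of the sgNAT10 set, with WT in blue and sgNAT10 in red, ordered by class. Col27a1 lies near 0.01 to 0.03 FPKM in WT and near 3 in sgNAT10, and Col4a1 and Col4a2 are lower in both edited libraries.

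Of the other collagens, Col8a1, a short network-forming collagen of vessel walls and the cornea, was the most abundant. Its mRNA rose from 22.8 and 21.9 FPKM to 36.8 and 37.0 (0.70, SE 0.035, adjusted p = 7.8e-05). Its footprints did not pass: they were at 111.4 and 129.9 in WT and 133.1 and 118.1 in sgNAT10, so that the groups overlapped (0.06, SE 0.155, adjusted p = 0.867). Col12a1, which coats the surface of fibrils, was at 1.52 and 1.53 against 2.22 and 1.95 (0.29, adjusted p = 0.0239; 0.45 by edgeR on recovered reads). Col16a1, a further fibril-associated collagen, fell from 4.49 and 4.73 to 2.37 and 2.62 (-0.68, adjusted p = 0.000579). Col18a1, the basement membrane proteoglycan whose end fragment is endostatin, fell from 2.39 and 2.26 to 0.959 and 0.971 (-0.76, adjusted p = 0.000605; -1.28 by edgeR on recovered reads). Its footprints were at 2.30 and 0.696 in WT and 1.04 and 1.90 in sgNAT10, so that the groups overlapped.

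Of type VI collagen, which forms beaded filaments from 3 different chains, Col6a1 and Col6a2 fell slightly. Col6a1 was at 14.2 and 15.6 FPKM in WT and 12.5 and 11.4 in sgNAT10 (-0.29, adjusted p = 0.013), and Col6a2 at 4.66 and 4.65 against 3.79 and 3.83 (-0.23, adjusted p = 0.0102). The large remaining chain, Col6a3, was at 0.0992 to 0.141 FPKM in all 4 libraries, so that Col6a1 exceeded it 88.9- to 143-fold. Col7a1, the anchoring fibril of skin, nearly disappeared: 0.958 and 0.873 FPKM in WT against 0.0395 and 0.0422 in sgNAT10. It was under the level tested by limma, and edgeR on recovered reads called it lower (log2 fold change -4.48, adjusted p = 2.4e-14). Its footprints were at 1.20 and 1.24 in WT and listed at 0 in sgNAT10, at least 23.3-fold lower with 70 reads in WT. The remaining other collagens stayed under 0.2 FPKM in all mRNA libraries of the set.

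Of these calls 4 of the smaller ones ended when a library was left out. Col12a1 and Col3a1 did not pass without WT replicate 1, WT replicate 2 or sgNAT10 replicate 1 (adjusted p between 0.066 and 0.0948), Col6a2 without WT replicate 1 (0.0564) or 2 (0.0556), and Col6a1 without WT replicate 2 (0.0565). The other 10 passed under all alternatives in which they were tested.

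In footprints 13 collagens were tested and 3 passed, Col1a2 higher and Col4a1 and Col4a2 lower, where 3.09% of all 9707 genes passed (1.81% higher, 1.28% lower). The median log2 fold change of the 13 was 0.04, against 0.00 over all genes tested, and 9 of the 13 had groups that did not overlap (51.1% of all genes). None of the 3 calls held without a trend in the variance, where 45 of 9707 genes passed as higher and 42 as lower. None held when any of the 4 libraries was left out. That leaves 1 library in a group, and almost no gene of any kind then passed, so the loss is not particular to these 3. In these fits the log2 fold changes lay between 1.43 and 1.80 for Col1a2, -2.02 and -1.76 for Col4a1 and -1.79 and -1.72 for Col4a2. EdgeR on recovered reads tested 17 collagens and called 8, where 383 of all 10010 genes passed as higher and 375 as lower. To the 3 limma calls it added Col5a2 (higher, adjusted p = 0.024), Col4a5 (lower, 0.00849) and the low-level Col27a1, Col5a3 and Col7a1.

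Translational efficiency asks whether footprints changed beyond mRNA, and was tested as the interaction of genotype and assay. None of the 13 collagens passed in limma, where 0.261% of 9200 genes did (0.152% higher, 0.109% lower), and 2 had an unadjusted p under 0.05. These were Col8a1 (-0.64, SE 0.146, adjusted p = 0.162) and Col4a2 (-0.32, SE 0.125, adjusted p = 0.381). Without WT replicate 1 of Ribo-seq Col8a1 passed (-0.75, adjusted p = 0.0409). For Col1a2 the change in footprints beyond mRNA was 0.01 (SE 0.187, adjusted p = 0.995), and for Col4a1 -0.33 (SE 0.167, adjusted p = 0.503). The model takes 1 spread for both assays although footprint libraries spread more, so these errors can be too small.

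**Figure D3:**
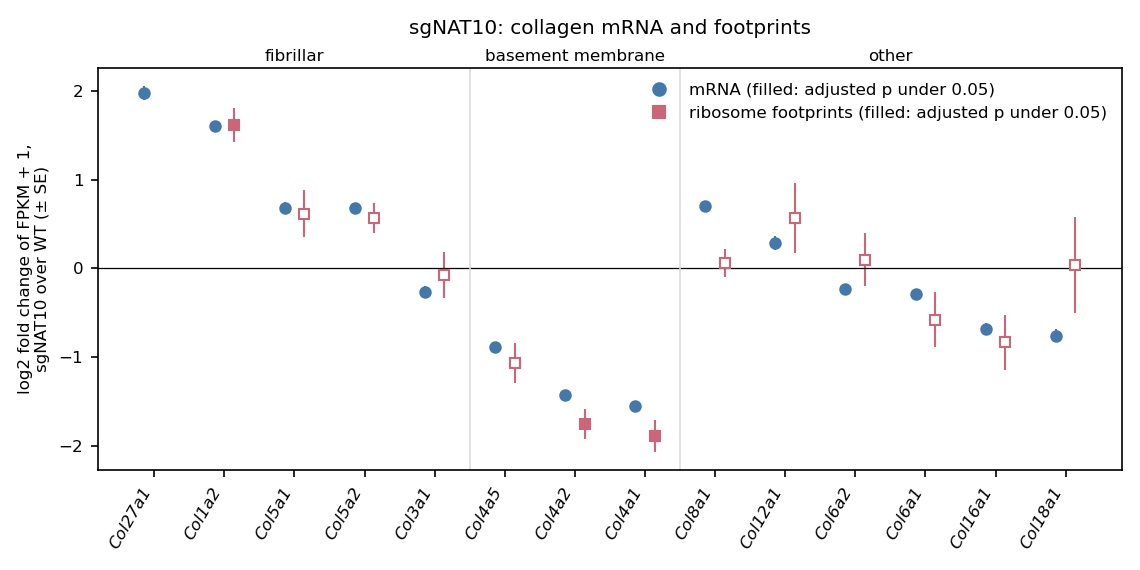
Log2 fold change (sgNAT10 over WT, ± SE, on log2(FPKM + 1)) of mRNA (circles) and footprints (squares) for the tested collagens, with filled symbols for an adjusted p under 0.05. The 3 type IV chains lie below 0 in both assays, Col1a2 lies at 1.61 in both, and Col8a1 is above 0 in mRNA and near 0 in footprints.

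Peaks of acetylated RNA were listed for 5 collagens: Col1a2 with 3, Col4a2 and Col5a1 with 2 each, and Col4a1 and Col6a3 with 1 each. Of the 14 collagens at 1 FPKM or more 4 had a peak, where 8.07% of the genes at that level did. All 9 peaks lay in coding exons and inside their gene on mm10. Collagen genes are cut into many short exons, and 8 of the 9 peaks were joined from more than 1 exon block (48.5% of all 1358 peaks). The 3 peaks of Col1a2 lay at chr6:4524507-4527057, chr6:4535401-4535813 and chr6:4536626-4537366, with authors' deposited fold enrichments over input of 1.31, 1.44 and 1.25. Those of Col4a2 lay at chr8:11415438-11420660 (2.10) and chr8:11434678-11437643 (1.53), that of Col4a1 at chr8:11235187-11236467 (1.45), those of Col5a1 at chr2:28005190-28009113 (2.15) and chr2:28010247-28012721 (2.19), and that of Col6a3 at chr1:90803836-90804016 (2.71). The median enrichment of the 9 peaks was 1.53, against 1.77 over all peaks. Col6a3, with the highest of the 9, was at only 0.0992 to 0.141 FPKM in the mRNA libraries of the sgNAT10 set.

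The authors' deposited table also gives a log2 difference between genotypes for each peak, without saying in its header which genotype is on top. It was positive in 7 of the 9 collagen peaks, against 772 of all 1358 peaks. Of the 9 collagen peaks 7 passed the authors' FDR at 0.05, where 65.3% of all peaks did. The peaks of Col4a2 had opposite signs, 4.41 at the one nearer the start of the gene and -3.50 at the other. Those of Col1a2 were at 0.71, 1.15 and 1.20, and that of Col4a1 at 2.26, so a gene whose mRNA rose and genes whose mRNA fell both had peaks with a positive difference. With 1 precipitate and 1 input per genotype these values have no replicate check.

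In sgMyc cells collagens were tested on counts with edgeR, which kept 29. Of these 4 passed as higher and 5 as lower, against 16.0% of all 16794 genes (7.11% higher, 8.86% lower). The median log2 fold change was -0.07, against -0.03 over all genes tested, and in 16 of the 29 the groups did not overlap (37.9% of all genes). Without sgMyc replicate 3, 30 collagens were tested and 23 passed, 14 higher and 9 lower, when 53.6% of all genes passed. The summed level was 401.5, 402.0 and 400.6 FPKM in WT and 666, 677 and 361.5 in sgMyc, so the first and second edited libraries lay above WT and the third below. Fibrillar chains made up 39.98%, 40.0% and 36.5% of it in WT and 58.5%, 58.2% and 47.8% in sgMyc, and type IV chains 32.3%, 32.1% and 34.8% against 17.7%, 17.9% and 27.4%. Both shares kept the genotypes apart in all 3 libraries (exact two-sided permutation p = 0.10 for each, the smallest that 3 against 3 can give). In FPKM the type IV sum was 129.5, 129.2 and 139.2 in WT and 117.7, 120.9 and 99.2 in sgMyc. Its lower share in the first and second edited libraries thus also reflects their higher collagen total.

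In the sum, Col3a1 was the gene with the most FPKM added in the first and second edited libraries. It was at 26.7, 28.0 and 21.5 FPKM in WT and at 229, 229 and 25.1 in sgMyc, which is 9.03-, 9.04- and 0.991-fold the WT mean. The third library lay inside the range of WT, and Col3a1 did not pass with it (log2 fold change 2.65, SE 0.750, adjusted p = 0.0607), while it passed without it (3.21, adjusted p = 1e-08) and by DESeq2 with all libraries (2.71, adjusted p = 0.0106). Type VI collagen split in the same way. Col6a1 was at 45.01, 46.0 and 46.2 in WT and 83.8, 85.7 and 37.4 in sgMyc (0.58, adjusted p = 0.234; without the third library 0.92, adjusted p = 2.3e-08). Col6a2 was at 9.95, 9.77 and 9.89 against 19.1, 18.6 and 7.41 (0.60, adjusted p = 0.277; without the third library 0.96, adjusted p = 3.6e-08). Both genes were above WT in the first and second sgMyc libraries and below it in the third.

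The third chain of type VI passed with all libraries. Col6a3 was at 0.340, 0.433 and 0.278 FPKM in WT and 2.97, 2.90 and 1.34 in sgMyc (2.77, SE 0.340, adjusted p = 0.00468; without the third library 3.09, adjusted p = 2.4e-07). Its folds over WT were 8.48, 8.27 and 3.82, and Col6a1 per Col6a3 was 132, 106 and 167 in WT and 28.2, 29.6 and 27.95 in sgMyc. Col27a1 was at 1.11, 1.23 and 0.890 in WT and 4.0, 3.96 and 2.99 in sgMyc (1.76, SE 0.161, adjusted p = 0.0021; without the third library 1.92, adjusted p = 8.7e-07). Col12a1 was at 2.70, 2.67 and 2.71 against 4.56, 4.39 and 4.66 (0.75, SE 0.0702, adjusted p = 0.00221; without the third library 0.76, adjusted p = 8.6e-07). These 3 genes were higher in all 3 edited libraries and passed under every alternative run, with smaller changes for Col6a3 (1.29) and Col27a1 (1.16) in limma on log2(FPKM + 1).

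Of the type V chains Col5a1 passed as higher, and Col5a2 and the low-level Col5a3 did not. Col5a1 was at 27.1, 25.5 and 25.7 in WT and 31.7, 34.3 and 34.1 in sgMyc (0.35, SE 0.0762, adjusted p = 0.028; without the third library 0.37, adjusted p = 8.8e-05), and Col5a2 at 28.1, 28.5 and 27.7 against 32.0, 32.6 and 39.0 (0.30, adjusted p = 0.113; without the third library 0.23, adjusted p = 0.000126). Col1a2 was at 76.2, 76.2 and 69.1 against 91.8, 92.6 and 71.4, an overlap that left it short of the test (0.21, adjusted p = 0.277; without the third library 0.35, adjusted p = 0.000101). In the third sgMyc library Col1a2 was within the WT range, as Col3a1 was.

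Of the type IV chains at 1 FPKM or more, Col4a2 passed as lower and Col4a1 and Col4a5 did not pass. Col4a1 was at 68.1, 67.8 and 73.2 FPKM in WT and 62.6, 63.4 and 50.9 in sgMyc (-0.24, adjusted p = 0.151; without the third library -0.12, adjusted p = 0.0351), and Col4a2 at 47.7, 46.8 and 51.8 against 38.7, 41.1 and 37.7 (-0.32, SE 0.0768, adjusted p = 0.0392; without the third library -0.26, adjusted p = 0.00175). Neither chain overlapped WT. Col4a5 was at 13.6, 14.3 and 14 against 16.3, 16.5 and 10.6, above WT in the first and second libraries and below in the third (0.04, adjusted p = 0.892); without the third library it passed as higher (0.26, adjusted p = 0.000187). Col8a1 was lower in all 3 edited libraries, at 31.9, 32.0 and 33.4 in WT and 26.7, 27.7 and 26.5 in sgMyc (-0.27, SE 0.0662, adjusted p = 0.0418; without the third library -0.22, adjusted p = 0.000535). Col16a1 and Col18a1 split by library: Col16a1 was at 16.9, 16.8 and 17.5 in WT and 16.7, 17.3 and 9.94 in sgMyc (-0.22, adjusted p = 0.498; without the third library 0.03, adjusted p = 0.577). Col18a1 was at 3.30, 3.24 and 3.63 against 3.86, 4.24 and 1.65 (-0.07, adjusted p = 0.91), and without the third library it passed as higher (0.29, adjusted p = 0.0122).

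The remaining passing genes were low. Col7a1 was at 0.542, 0.478 and 0.594 FPKM in WT and 0.0543, 0.0315 and 0.124 in sgMyc (-2.90, SE 0.502, adjusted p = 0.0141). Col11a2, a minor fibrillar chain of cartilage, was at 0.292, 0.383 and 0.258 against 0.0673, 0.0475 and 0.0412 (-2.57, adjusted p = 0.00383). Col4a4, a chain of the kidney filter, was at 0.0733, 0.0889 and 0.109 against 0.0325, 0.0157 and 0.0051 (-2.33, adjusted p = 0.0476). All 3 were lower in each edited library, and all 3 passed as lower without the third (-3.59, -2.38 and -1.83, adjusted p = 3.6e-06, 0.000155 and 0.00552).

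Leaving out a library ended 5 of the 9 sgMyc calls. Over all genes, too, fewer passed without any library other than sgMyc replicate 3. With all libraries 1194 of 16794 genes were higher and 1488 lower. It was 423 and 802 of 17251 without sgMyc replicate 1, and 187 and 493 of 17454 without WT replicate 3. Col4a2 and Col8a1 passed without the third sgMyc library and not without any of the other 5 libraries (adjusted p between 0.109 and 0.172 for Col4a2 and between 0.137 and 0.187 for Col8a1). Col5a1 did not pass without sgMyc replicate 2 (0.0699) or WT replicate 1 (0.108), 2 (0.139) or 3 (0.144). Col4a4 did not pass without sgMyc replicate 2 (0.158) or WT replicate 1 (0.128), 2 (0.144) or 3 (0.177), and Col7a1 did not without sgMyc replicate 1 (0.056) or WT replicate 1 (0.0643), 2 (0.0605) or 3 (0.0732). Col4a2 and Col8a1 also missed by DESeq2 (0.0547 and 0.0789), and Col4a2, Col8a1 and Col4a4 without a filter on low counts (0.0840, 0.0915 and 0.0847).

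**Figure D4:**
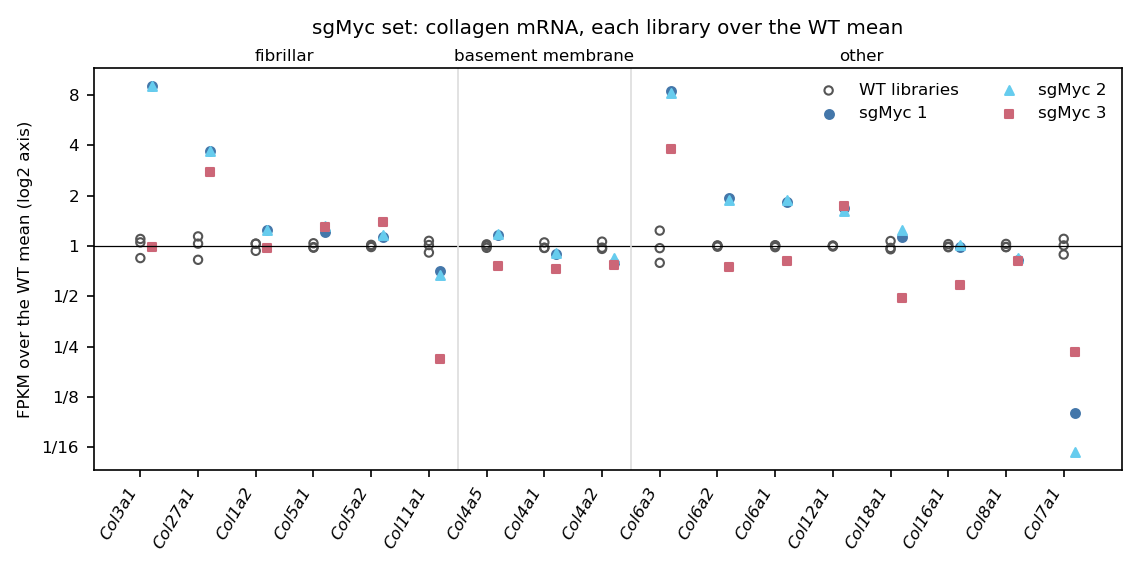
FPKM of 17 collagens in each library of the sgMyc set, divided by the mean of the 3 WT libraries (log2 axis), with open circles for WT. Col27a1, Col6a3 and Col12a1 lie above 1 and Col7a1 below 1 in all 3 sgMyc libraries, while Col3a1, Col6a1 and Col6a2 lie above 1 in the first and second only.

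The effects of the edits were compared by the interaction of edit and set, sgMyc effect minus sgNAT10 effect. The WT libraries of the sets, normalized separately, started from different listed levels. Mean WT FPKM in the sgNAT10 and sgMyc sets was 13.1 and 73.8 for Col1a2, 4.31 and 25.4 for Col3a1, and 1.02 and 0.0564 for Col5a3. Of 14 collagens tested 8 passed, 4 in each direction, where 21.0% of 10265 genes passed (6.78% higher, 14.2% lower). The type IV chains had a less negative or a positive change under sgMyc, with a difference of 1.31 for Col4a1 (SE 0.136, adjusted p = 0.000472), 1.12 for Col4a2 (SE 0.0927, adjusted p = 0.00016) and 0.90 for Col4a5 (SE 0.23, adjusted p = 0.0258). The change of Col1a2 was smaller under sgMyc (-1.41, SE 0.161, adjusted p = 0.000736), as was that of Col5a1 (-0.34, adjusted p = 0.0348). That of Col27a1 was smaller too (-0.81, adjusted p = 0.00878), and with a pseudocount of 0.1 the difference was -3.05, since its WT level in the sgNAT10 set is near 0. Col8a1 moved in opposite directions, higher under sgNAT10 and lower under sgMyc (-0.96, SE 0.0768, adjusted p = 0.00014), and Col12a1 rose more under sgMyc (0.29, adjusted p = 0.0396). Col3a1, lower under sgNAT10 and high in 2 of 3 sgMyc libraries, did not pass (2.36, SE 1.16, adjusted p = 0.195). Without the third sgMyc library all 14 collagens passed, 9 higher and 5 lower, as did 59.6% of all genes, and Col3a1 differed by 3.4 (adjusted p = 6.7e-08).

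The calls for Col4a1, Col4a2, Col1a2, Col27a1 and Col8a1 held under all alternatives run, and those for Col12a1, Col4a5 and Col5a1 did not. Of the libraries left out singly, only sgNAT10 replicate 1 and sgMyc replicate 3 left the Col12a1 call in place (adjusted p up to 0.157 without another), and it missed with a pseudocount of 0.1 (0.0935) and without a filter on low values (0.0662). Col4a5 did not pass without any library of the sgNAT10 set or any WT library of the sgMyc set (0.0561 to 0.102), and Col5a1 without WT replicate 1, WT replicate 2 or sgNAT10 replicate 2 of the sgNAT10 set, or without sgMyc replicate 1 or any WT library of the sgMyc set (0.0653 to 0.149) or with median scaling within each set (0.0565).

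Collagens were set beside 56 genes that make, export, trim, cross-link or bind them. In sgNAT10 mRNA 40 of these were tested and 20 rose and 14 fell, with a median of 0.08; over all genes 33.7% rose and 29.6% fell, and the role counts that follow stand against the same shares. The genes of propeptide removal fell in 3 of 4 cases, median -1.60, where 4 of 5 tested fibrillar collagens rose. Pcolce2, an enhancer of the C-propeptidase, fell from 7.16 and 7.31 FPKM to 0.0134 and 0.0502 (-3.00, adjusted p = 1.2e-05). Adamts14, an N-propeptidase, was at 4.82 and 5.07 in WT and at 0 to 0.0119 in sgNAT10 (-2.56, adjusted p = 2e-05), and Pcolce at 69.5 and 69.95 against 44.4 and 45.1 (-0.63, adjusted p = 5.8e-05). Footprints of all 3 were lower too (-3.01, -3.14 and -0.94, adjusted p = 0.0248, 0.0248 and 0.0316).

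All 3 tested lysyl oxidases, which cross-link collagen, rose: Loxl3 (1.11), Loxl1 (1.00) and Loxl4 (0.35), with adjusted p = 6e-05, 2.3e-05 and 0.00258. Of 15 tested genes of chain modification and folding 8 rose and 5 fell, and the 3 with the lowest p had fallen: P4ha2 (-0.84), Plod2 (-0.70) and Serpinh1 (-0.36), which hydroxylate prolines, hydroxylate lysines and chaperone procollagen. Of 4 tested genes of export from the endoplasmic reticulum 3 rose, Mia3 (0.52), Sec23a (0.31) and Sec24d (0.26), and of 4 tested receptors Mrc2 (0.45), Ddr2 (0.41) and Itgb1 (0.11) rose. Of 10 tested basement membrane partners 3 rose and 6 fell, led by Lama5, a laminin chain (-1.77), Agrn, a heparan sulfate proteoglycan (-1.14), and Sparc, which binds type IV collagen (-0.77). In footprints, where 1.81% of all genes rose and 1.28% fell, none of the 40 rose and 6 fell: Pcolce2, Adamts14 and Pcolce, P4ha2 (-1.22, adjusted p = 0.0208), Lama5 (-1.81, 0.0215) and Sparc (-0.94, 0.0248).

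In sgMyc 50 of the 56 were tested, 9 rose and 10 fell, with a median of -0.12, against 7.11% and 8.86% of all genes. Without the third sgMyc library 20 rose and 23 fell, when 53.6% of all genes passed. Adamts14 was at 11.7 to 15.02 FPKM in WT and 0.0118 to 0.0154 in sgMyc, Pcolce2 at 3.98 to 5.08 against 0 to 0.00992, and Adamts2, another N-propeptidase, at 0.626 to 1.04 against 0 in all 3 libraries (edgeR adjusted p = 3.2e-05, 0.000412 and 0.00163). All 3 were near 0 in the third sgMyc library as well. Of 5 tested genes of propeptide removal 3 fell and 1 rose. The riser was Bmp1 (0.86, edgeR adjusted p = 0.0126), at a mean of 13.3 FPKM in WT and 24.2 in sgMyc. Without the third library its change was 1.05. In sgNAT10 mRNA Bmp1 did not pass (-0.04). Of 5 lysyl oxidases Lox (2.36, adjusted p = 0.0178), Loxl3 (0.85, 0.00458) and Loxl1 (0.49, 0.0077) rose. Without the third library the same 3 had changes of 2.51, 0.96 and 0.56, and Loxl4 passed as lower (-0.26, edgeR adjusted p = 0.000669). Lox was low, at a mean of 0.074 FPKM in WT and 0.392 in sgMyc. Plod2 (-0.99, 0.00275) and P4ha2 (-0.88, 0.00434) fell and P3h1, a prolyl 3-hydroxylase, rose (0.63, 0.0101), while none of the genes of export or of the receptors passed. Of 13 tested basement membrane partners 3 rose and 3 fell. Hspg2 (0.47, 0.0161), Lamc1 (0.44, 0.0223) and Agrn (2.68, 0.0384) rose. Lamb3 (-1.82, 0.00736), Sparc (-0.87, 0.0228) and Nid2 (-0.49, 0.0239) fell. Lamb3 was low, at a mean of 0.178 FPKM in WT and 0.0478 in sgMyc. The difference between the edits passed for 6 of 40 in the higher and 11 in the lower direction (6.78% and 14.2% of all genes). Without the third sgMyc library 10 and 20 passed, when 59.6% of all genes did. Among those that passed with all libraries were P3h4 (-0.99), P4hb (-0.63), Crtap (-0.36), Mia3 (-0.49), Sec24d (-0.40), Sec23a (-0.38), Adamts14 (-1.22), Pcolce2 (0.56), Pcolce (0.45), Loxl1 (-0.52), Ddr2 (-0.52), Itgb1 (-0.32), Lama5 (1.38), Lamc1 (0.62) and Agrn (3.33). Adamts14 and Pcolce2 were near 0 under both edits, so on log2(FPKM + 1) their differences follow mainly from the WT levels. The WT means in the sgNAT10 and sgMyc sets were 4.95 and 13.0 FPKM for Adamts14 and 7.23 and 4.46 for Pcolce2. For these genes the value is therefore not read as a difference between the edits.

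Markers of fibroblasts or mesenchymal cells were measured beside the collagens. Of the 10, 6 were tested in sgNAT10 mRNA, where 63.3% of all genes passed; 4 rose, Pdgfrb fell (-0.46) and S100a4 did not pass, and the sum over the 7 in the table was 287 to 298 FPKM in WT and 512 to 539 in sgNAT10. Thy1 went from 1.04 and 1.35 FPKM to 42.6 and 40.9, and Vim from 248 and 255 to 444 and 421. In the sgMyc set 9 of the 10 were tested, 4 rose and 1 fell, where 16.0% of all genes passed. Without the third library 10 were tested, 9 rose and 1 fell, when 53.6% of all genes passed. The sum of the 10 was 1265 to 1322 FPKM in WT and 960 to 1458 in sgMyc. Dcn was at 0.619, 0.654 and 0.658 FPKM in WT and at 15.2, 14.6 and 0.670 in sgMyc, and Pdgfra at 18.4, 17.9 and 16.5 against 62.0, 62.1 and 19.6, so that both were high in the same 2 libraries as Col3a1. Thy1 was higher and Vim lower than WT in all 3 sgMyc libraries. Fap and Postn were listed at 0 in all 3 WT libraries of this set. Macrophage markers summed to 5.50 to 6.004 FPKM in WT and 12.2 to 13.7 in sgNAT10, and to 11.1 to 12.5 in WT and 15.95 to 29.3 in sgMyc. With all libraries Cd14 was the marker of these that passed as higher, from 2.41 and 2.15 to 10.7 and 8.75 FPKM in sgNAT10 and also in sgMyc (log2 fold change 1.20). Cd68 and Csf1r then did not pass in either set, and Mrc1 fell in sgMyc (-2.39). Cd68 was at 3.93, 2.95 and 3.66 FPKM in WT and 7.17, 6.85 and 2.38 in sgMyc. Without the third library it passed as higher (1.03, edgeR adjusted p = 0.000304), when 53.6% of all genes passed. The part of other cells in these differences was not tested, and fewer cells of a type cannot be told apart from less RNA per cell.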

How the data were processed

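Per the submitters' processing notes, reads were handled with FastQC, Trim Galore, Bowtie2 and featureCounts on the mouse build mm10; versions, and which step made which file, are not given in the sources used here. The deposited sgMyc table holds counts and FPKM per gene, and its counts summed to 51875052 to 65768024 per library. For sgNAT10, per the file headers, FPKM stand beside the authors' own log2 fold changes and p-values, which made no call here. The deposited acRIP table holds, per the file headers, a fold (ratio) of precipitate over input, a log2 difference between genotypes and scores on a log10 scale, 1 value per peak.

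FPKM were tested as log2(FPKM + 1) with limma 3.58.1 (trend) where the mean over libraries reached 1 FPKM, and counts with edgeR 4.0.16 (filterByExpr, TMM, quasi-likelihood) in R 4.3.3. Benjamini-Hochberg adjustment ran over all genes of a fit, and calls were made at an adjusted p under 0.05. From FPKM ratios between libraries (relative tolerance 1e-09), whole reads could be derived in 99.94% of genes in the mRNA and 99.99% in the Ribo-seq table. Where they shared a divisor, seen against the counts per FPKM of the sgMyc table (within 0.12 of a whole multiple), it was restored, in 1676 and 1246 genes. They summed to 13229334 to 17259958 for mRNA and 1669142 to 3455425 for Ribo-seq, an estimate of depth. Limits for a group at 0 use 3 reads per group and cover counting error only.

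The members, lists and tests were chosen with earlier results of these data known. Collagens that passed, or with a mean of at least 5 FPKM in a group, are given library by library (from 1 FPKM if they passed). Of the pathway genes, up to 3 per role with the lowest p among those that passed are given. Bmp1, Agrn, Sparc and Nid2 in sgMyc were added after their values were seen. The markers and genes printed as values beside them (Thy1, Vim, Dcn, Pdgfra, Cd14 and the like) were chosen after their values were seen, as were Col5a3, Col11a1, Col1a1, Col6a3 in sgNAT10 and Col7a1 at low level. Promoter windows are those of RefSeq (GRCm38.p6). Scripts were tested on simulated data. Alternatives were other pseudocounts, filters, scalings and tools (DESeq2 1.42.0), a replicate block and leaving out each library. The counts of pathway genes and markers without sgMyc replicate 3 were chosen after seeing the data. The sequences of acRIP peaks were not used here.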

Additional observations from a re-analysis of the deposited data

Results flagged for a closer look

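The collagens below had effects that differed between the 2 edits by the test of the difference itself (limma, edit by set; sgMyc effect minus sgNAT10 effect, log2). They were Col4a1 (1.31), Col4a2 (1.12), Col4a5 (0.90) and Col12a1 (0.29) in the higher direction, and Col1a2 (-1.41), Col8a1 (-0.96), Col27a1 (-0.81) and Col5a1 (-0.34) in the lower. With a pseudocount of 0.1 in place of 1 the value for Col27a1, whose WT level in the sgNAT10 set is near 0, was -3.05. The edits were sequenced in separate sets, so the edit and anything else that differs between the sets cannot be told apart.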

How the results depend on the processing

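Of the 147 values of called collagens under alternatives in sgNAT10 mRNA 138 kept their call and direction, of 33 in footprints 18 and of 103 in the difference between the edits 78. In sgMyc 82 of 117 values kept their state, passing or not. These include values of Col3a1, Col6a1 and Col4a1, which were not called. Of the 9 sgMyc calls 4 were kept under all alternatives in which the gene was tested. No called collagen reversed its sign in the comparison in which it was called. Some collagens not called in sgMyc did reverse without sgMyc replicate 3. Col16a1 went from -0.22 to 0.03, Col1a1 from -0.41 to 0.05 and Col9a3 from -0.02 to 0.25, none of them passing. Col18a1 went from -0.07 to 0.29 and then passed as higher. The count of collagens called in sgNAT10 mRNA was 8 with a mean of at least 5 FPKM, since 8 were then tested, and 10 to 13 with 1 library left out. In footprints it was 8 of 17 tested with edgeR on recovered reads, where 383 of 10010 genes passed as higher and 375 as lower. It was 0 without the variance trend, where 45 of 9707 genes passed as higher and 42 as lower. With 1 library left out no collagen passed, and almost no gene of any kind did. For translational efficiency it was 1 without WT replicate 1 of Ribo-seq and 0 without any other library. In sgMyc it was 4 to 23 with 1 library left out. It was 4 without WT replicate 3, when 187 of 17454 genes passed as higher and 493 as lower. It was 23 without sgMyc replicate 3, when 53.6% of all genes passed. For the difference between the edits it was 4 to 14, 14 being without the same library. Same-numbered WT and edited libraries did not deviate together (correlation 0.00790 in mRNA, 0.0245 in Ribo-seq, and -0.0181, -0.0138 and 0.0101 in the sgMyc set). This does not exclude a pairing, since with 2 libraries per group the deviations of a gene are only equal and opposite. Whether same-numbered mRNA and Ribo-seq libraries are paired was not tested. With a replicate block 14 collagens were called in sgNAT10 mRNA, 3 in footprints, 0 in translational efficiency and 5 in sgMyc. Over all genes, 3831 rose and 3398 fell of 11735 in mRNA, and 142 and 98 of 9707 in footprints. In translational efficiency it was 1 and 3 of 9200, and in sgMyc 408 and 674 of 16794. The cause of these moves was not tested. Ribo-seq depth limits collagens under about 1 FPKM. Where 1 library is left in a group, it is assumed to vary like the rest.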
